A study of Mus musculus with 8 samples.

Results

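The replication-dependent histone genes encode the core histones H2A, H2B, H3 and H4 and the linker histone H1 that package newly copied DNA. They were followed by total RNA sequencing of mouse bone marrow cells sorted as long-term haematopoietic stem cells (LT-HSCs). Members were all gene symbols of the deposited count table that name a clustered histone gene (the Hist families 1 to 4 and their H1f, H2ac, H2bc, H3c and H4c equivalents) and that held at least 10 counts summed over the 8 libraries. Of 24421 symbols, 68 matched by name and 59 were members: 6 of type H1, 14 H2A, 17 H2B, 10 H3 and 12 H4. The H2B count includes Hist3h2bb-ps, which is annotated as a processed pseudogene. After a filter on low counts, 57 of the 59 entered the tests, among 15917 genes tested. Those without a test were Hist1h2aa and Hist1h2ba, testis-type genes with 12 and 13 counts in all.

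The cells carried a Vwf-GFP reporter, which marks LT-HSCs biased toward the megakaryocyte lineage, and were sorted as lineage-negative, CD117+, Sca1+, CD150hi and CD48lo before being parted into Vwf+ and Vwf- fractions. Each fraction came from wild-type (WT) mice and from Dnmt3a+/- mice, heterozygous for the de novo DNA methyltransferase Dnmt3a, at 10 to 12 months of age. The 4 groups (Vwf- WT, Vwf- Dnmt3a+/-, Vwf+ WT and Vwf+ Dnmt3a+/-) held 2 libraries each, replicate 1 from a pool of male mice and replicate 2 from a pool of female mice, with 3 to 4 mice in a pool. The Dnmt3a allele is not described in the labels, single mice were not resolved, and sex and replicate number are the same split and cannot be told apart. The labels also do not say whether the Vwf+ and Vwf- libraries of the same genotype and sex came from the same mice.

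Histone messages of this family are made mainly during S phase, when DNA is copied, and are destroyed when copying ends. Most of them carry no poly(A) tail: they end just after a short stem-loop, which the stem-loop binding protein Slbp holds and which sets processing, translation and decay. The genes are short, mostly lack introns and lie in clusters, where many H2A and H2B genes face away from each other across a shared promoter. LT-HSCs are largely quiescent in adult marrow, so that few of them are in S phase at a time.

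The members lie in 4 clusters of GRCm38 (GENCODE M21). Hist1 holds 49 members on chr13:21715763-23934851, in which 1487374 bases without a member separate Hist1h2bj from Hist1h4h. Hist2 holds 6 on chr3:96219865-96270132, Hist3 holds 3 on chr11:58948920-58956830, and Hist4 is the single gene Hist4h4 on chr6:136801553-136804415.

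The stem-loop is the feature that sets these messages apart from others, so the forms found are shown with 5 flanking bases on each side, from the GENCODE M21 transcripts on the strand of the gene. The search asked for a 16-base run after the stop codon that starts with GG, has a perfect stem of 6 base pairs closed by T and A, and has a loop of 4 bases starting with TT or TC. Of the 43 members whose annotated transcript runs at least 30 bases past the stop codon, 39 held such a run, against 29 of 20779 other genes (0.140%). It began 21 to 54 bases after the stop codon (median 31). Among the other genes with such a run were H2afx and H2bfm, histone genes outside the name rule. Capitals mark the stem-loop, and each form is given for 1 member that carries it.
Hist1h1c: caaaaGGCTCTTTTCAGAGCCaccac
Hist1h4d: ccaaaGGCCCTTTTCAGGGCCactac
Hist1h2bb: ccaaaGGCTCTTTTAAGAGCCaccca
Hist1h4b: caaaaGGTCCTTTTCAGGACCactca
Hist2h4: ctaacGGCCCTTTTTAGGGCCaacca
Hist1h3g: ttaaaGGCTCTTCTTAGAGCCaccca
Hist1h4a: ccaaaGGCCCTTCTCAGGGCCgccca
Hist2h2ac: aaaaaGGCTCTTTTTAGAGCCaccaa
The first form was in 20 members of types H1, H2A, H2B and H3 and in no H4 gene. The second was in 6 members, all H4, and the third in 6 of types H1, H2B and H3. The fourth and the fifth were each in 2 H4 genes, and the last 3 forms in 1 gene each. No match was found in Hist1h2bc, Hist2h2be, Hist1h1a or Hist2h3b. The annotated transcripts of Hist1h1a and Hist2h3b run only 48 and 37 bases past the stop codon. A 16-base run that starts later in the range of 21 to 54 bases would be missed there, so the search cannot say whether these genes lack it. A further 16 members had no transcript that runs far enough past a stop codon to be searched.

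Promoters are shown for the member of each type with the smallest p between Vwf+ and Vwf- cells among the 53 members matched to RefSeq promoter windows (GRCm38.p6). The 250 bases before the start are printed, 5′ to 3′ on the strand of the gene, with capitals for the CCAAT box (CCAAT), the TATA box (TATAAA), the octamer (ATTTGCAT) and the H1 box (AAACACAA), each searched on both strands.
Hist1h1b (chr13:21780626-21780875, minus strand): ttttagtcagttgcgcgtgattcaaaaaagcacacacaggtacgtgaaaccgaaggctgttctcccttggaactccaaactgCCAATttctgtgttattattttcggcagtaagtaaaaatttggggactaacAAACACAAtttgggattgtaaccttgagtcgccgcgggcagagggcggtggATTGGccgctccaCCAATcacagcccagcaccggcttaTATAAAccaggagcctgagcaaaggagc
Hist1h2an (chr13:21787249-21787498, minus strand): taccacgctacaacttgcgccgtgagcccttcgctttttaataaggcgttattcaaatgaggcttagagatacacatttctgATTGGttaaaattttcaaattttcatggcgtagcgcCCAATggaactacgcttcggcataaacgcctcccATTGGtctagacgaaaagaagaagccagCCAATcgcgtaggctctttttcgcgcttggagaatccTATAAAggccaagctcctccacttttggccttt
Hist2h2bb (chr3:96269450-96269699, plus strand): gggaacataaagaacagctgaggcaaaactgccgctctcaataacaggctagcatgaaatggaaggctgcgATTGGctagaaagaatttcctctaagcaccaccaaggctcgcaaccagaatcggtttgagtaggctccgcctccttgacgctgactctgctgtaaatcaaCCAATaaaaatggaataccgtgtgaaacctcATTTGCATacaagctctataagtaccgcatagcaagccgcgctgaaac
Hist1h3i (chr13:21783398-21783647, minus strand): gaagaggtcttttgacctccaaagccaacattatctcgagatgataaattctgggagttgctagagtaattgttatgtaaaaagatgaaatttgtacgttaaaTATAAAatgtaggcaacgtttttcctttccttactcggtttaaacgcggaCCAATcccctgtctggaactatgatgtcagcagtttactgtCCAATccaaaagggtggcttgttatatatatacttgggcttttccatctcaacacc
Hist1h4a (chr13:23761250-23761499, minus strand): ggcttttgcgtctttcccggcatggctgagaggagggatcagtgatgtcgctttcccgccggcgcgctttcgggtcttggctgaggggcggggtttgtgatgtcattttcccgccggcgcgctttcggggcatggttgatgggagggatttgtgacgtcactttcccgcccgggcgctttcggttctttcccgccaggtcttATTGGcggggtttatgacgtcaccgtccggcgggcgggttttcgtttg
In windows of 300 bases (250 before and 50 after the start), CCAAT was in 45 of 53 members (84.9%), against 37.4% of 32851 promoters. All 6 H1, 14 H2A, 14 H2B and 8 H3 promoters held it, and 3 of 11 H4 promoters did. TATAAA was in 33 of 53 (62.3%), against 13.6% of all promoters. The octamer was in 7 of 14 H2A and 6 of 14 H2B promoters and in none of the H1, H3 and H4 ones, against 1.74% of all promoters. The H1 box was in 4 of 6 H1 promoters, against 1.93% of all. The motifs do not overlap each other in letters, a divergent H2A and H2B pair shares its region, and a match describes letters only.

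Libraries held 21809278 to 39402418 counts, and the members took 0.577% to 1.16% of them. Vwf, the gene behind the sort, stood at 98.9 and 115 CPM in Vwf- WT pools, 116 and 104 in Vwf- Dnmt3a+/-, 1216 and 1409 in Vwf+ WT and 1034 and 1203 in Vwf+ Dnmt3a+/-; here and below, the male pool comes first in each group, and CPM is the count scaled to the size of its library. Dnmt3a stood at 251 and 202 CPM in Vwf- WT pools, 361 and 275 in Vwf- Dnmt3a+/-, 175 and 203 in Vwf+ WT and 179 and 279 in Vwf+ Dnmt3a+/-. It was not lower in the heterozygous pools, and a whole-gene count cannot check which allele was transcribed. All 13 LT-HSC marker genes were detected in every library, the lowest being Hoxb5 at 8.08 CPM. The nuclear transcript Malat1 took 0.974% to 1.97% of the counts in the 4 male pools and 0.446% to 0.585% in the 4 female pools.

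The first comparison asked how the megakaryocyte-biased Vwf+ cells differ from the Vwf- cells. Averaged over genotype, 8 of the 57 tested histone genes fell in Vwf+ cells and none rose (edgeR quasi-likelihood test, adjusted p under 0.05). Of all 15917 tested genes, 1.68% fell and 599 rose. The median change of the members was -0.66 on the log2 scale, against -0.007 for all tested genes, and 56 of 57 members had a negative value. The 57 changes ran from -1.11 to 0.05, and 47 members had an unadjusted p under 0.05, as did 2742 of the 15917 tested genes. In pooled RNA, fewer cells in S phase and less histone message per cell cannot be told apart.

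With the replicate number as a block, which takes out the difference between male and female pools, 46 of 57 members fell, where 5.97% of all tested genes did, and the 8 were among the 46. The 8 were of types H1, H2A, H2B and H3, and the 46 of all 5 types. The count without the block depended on single libraries: it was 1 without the Vwf+ WT male pool, 2 without the Vwf- WT female pool, 3 without the Vwf+ Dnmt3a+/- male pool and 5 without the Vwf- Dnmt3a+/- female pool. It was 12 without the Vwf+ WT female pool, 26 without the Vwf+ Dnmt3a+/- female pool and 33 without the Vwf- Dnmt3a+/- male pool. It was 9 without the Vwf- WT male pool. Of the 8 members, Hist1h2an kept its call whichever of the 8 libraries was left out (adjusted p 0.0028 to 0.037). Hist1h1b kept it in 7 of 8 fits, losing it without the Vwf+ WT male pool (adjusted p = 0.055), Hist2h2bb in 6, Hist1h2bb in 5, Hist1h3i and Hist1h2ai in 4, Hist1h2bg in 3 and Hist1h1a in 2. The fit without the block treats the gap between male and female pools as error.

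**Figure D1:**
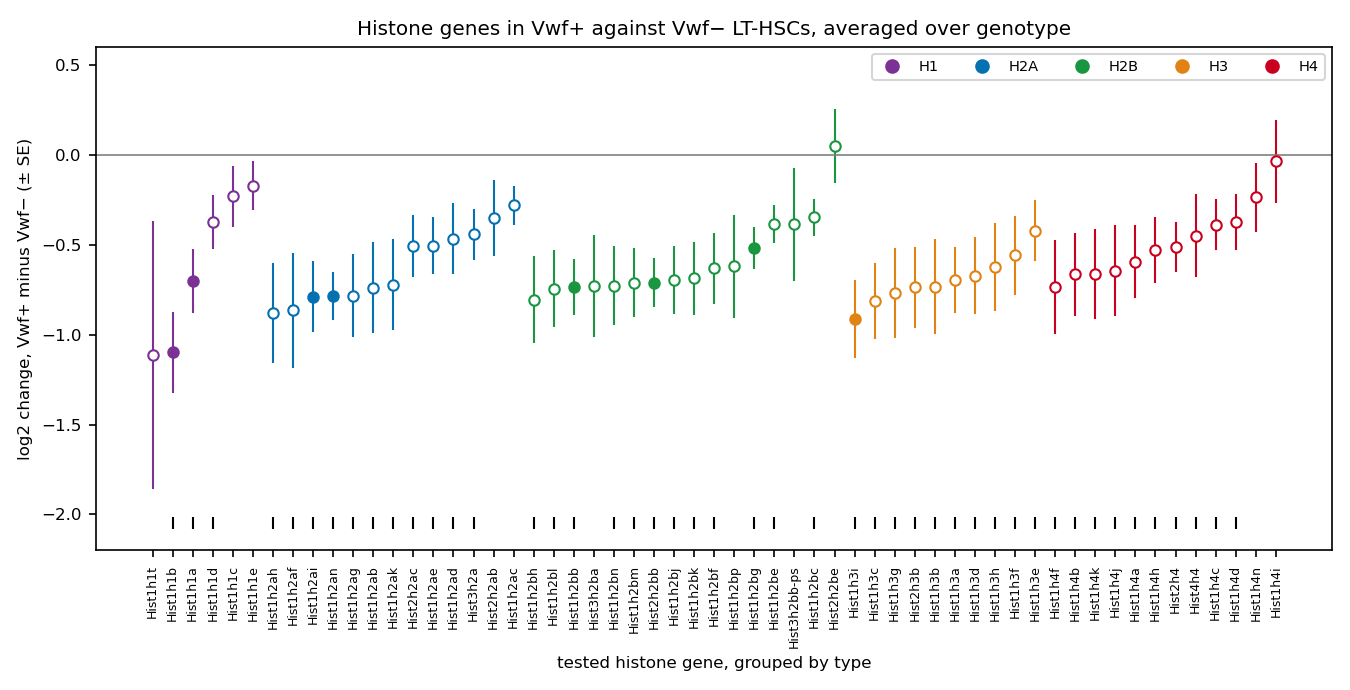
Log2 change (points, ± SE) of the 57 tested histone genes in Vwf+ against Vwf- LT-HSCs averaged over genotype, grouped by type. Filled points passed the test without the block (8 genes) and black ticks mark genes that fell with the replicate block (46 genes); 56 of 57 points lie below 0.

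Pool by pool the direction was the same. In the WT male pair and in the Dnmt3a+/- male pair, all 57 tested members were lower in the Vwf+ than in the Vwf- pool, as were 53 in the WT female pair and 54 in the Dnmt3a+/- female pair. The median log2 ratio was -0.75, -0.71, -0.41 and -0.60 in those 4 pairs, and over all tested genes the medians ran from -0.015 to 0.006. Vwf+ lay below Vwf- in all 4 pairs for 52 of 57 members, against 17.6% of all tested genes. Without pairing, all 4 Vwf+ pools lay below all 4 Vwf- pools for 17 of 57 members, against 5.33% of all tested genes.

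**Figure D2:**
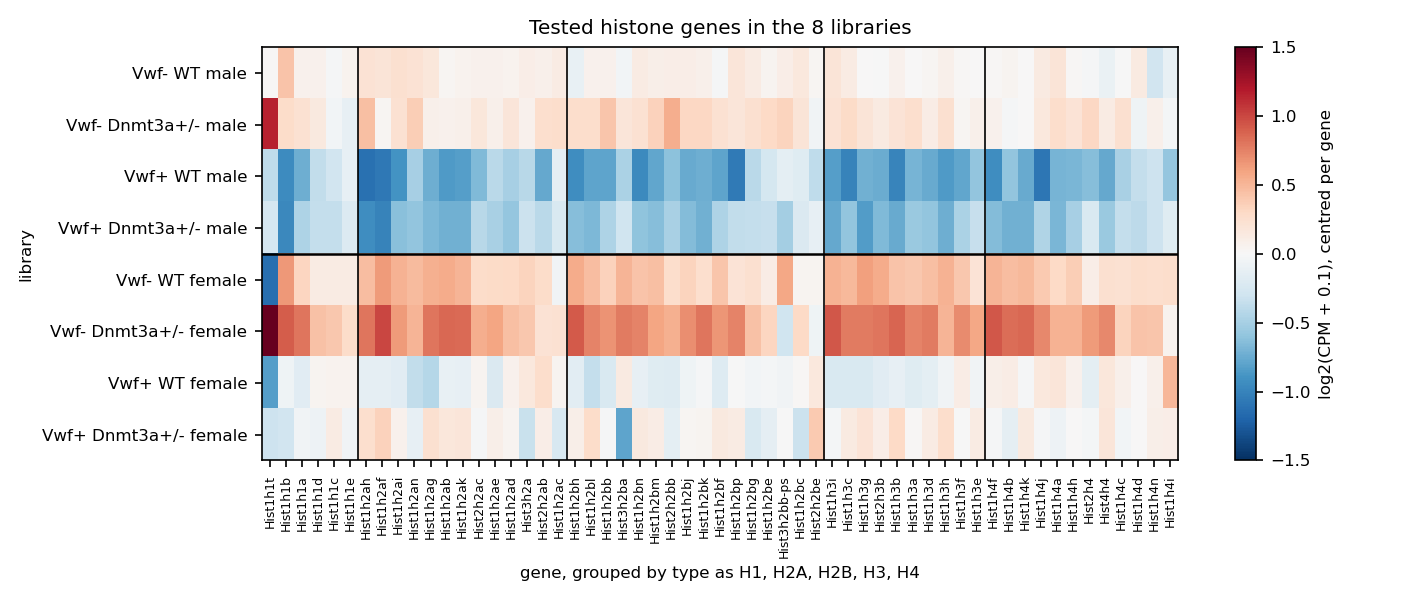
Log2(CPM + 0.1) of each tested histone gene in the 8 libraries, centred on the gene's mean over libraries (columns grouped as H1, H2A, H2B, H3, H4; male pools above the line, female pools below; the colour scale stops at 1.5 in either direction). The Vwf+ male pools are the lowest and the Vwf- Dnmt3a+/- female pool is the highest for most genes.

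Linker histone H1 binds the DNA between nucleosomes. On the scale of TPM, which corrects for gene length, H1 made up 26.9% to 34.5% of the summed level of the members, the largest share of the 5 types in every library. Hist1h1c had the highest mean level of all members (3621 TPM), followed by Hist1h1d (2391) and Hist1h1e (1914), and Hist1h1a and Hist1h1b were lower at 765 and 392 TPM. Of the 6 tested H1 genes, 2 fell in Vwf+ cells, and 3 with the block (median -0.54).

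Hist1h1b (chr13:21779883-21780625, minus strand) stood at 181 and 211 CPM in Vwf- WT pools, 162 and 253 in Vwf- Dnmt3a+/-, 70.0 and 129 in Vwf+ WT and 68.6 and 109.8 in Vwf+ Dnmt3a+/-. The 4 Vwf+ pools lay below the 4 Vwf- pools, with the male Vwf+ pools lowest. The change was -1.10 ± 0.22 (SE, log2 scale), a level 2.14-fold lower (adjusted p = 0.019), the largest change among the 8 that fell. Hist1h1a (chr13:23763666-23764406, plus strand) stood at 269 and 323 CPM in Vwf- WT pools, 303 and 450.4 in Vwf- Dnmt3a+/-, 156 and 230.2 in Vwf+ WT and 187 and 248 in Vwf+ Dnmt3a+/-, again without overlap, with a change of -0.70 ± 0.18 (adjusted p = 0.049). None of the 50-base words of either transcript occurs at another locus, so their counts do not rest on reads shared with another histone gene of this annotation.

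The abundant Hist1h1c stood at 1222 and 1345 CPM in Vwf- WT pools, 1199.8 and 1636 in Vwf- Dnmt3a+/-, 1015 and 1276 in Vwf+ WT and 968 and 1340.2 in Vwf+ Dnmt3a+/-. Its Vwf+ and Vwf- pools overlapped, and its change of -0.23 ± 0.17 did not pass (adjusted p = 0.59, and 0.17 with the block). Hist1h1d had a change of -0.38 ± 0.15 and passed with the block (adjusted p = 0.015), while Hist1h1e had a change of -0.17 ± 0.14 and did not (adjusted p = 0.35). Whether the H1 genes differ among themselves was not tested. Hist1h1t, which encodes the H1 of the testis, was near the floor at 0.389 and 0.120 CPM in Vwf- WT pools, 0.979 and 1.501 in Vwf- Dnmt3a+/-, 0.270 and 0.172 in Vwf+ WT and 0.307 and 0.290 in Vwf+ Dnmt3a+/-. It rested on few reads, and its change of -1.11 ± 0.75 carried the largest error of all members.

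H2A pairs with H2B at the outer face of the nucleosome. Of the 13 tested H2A genes, 2 fell, and 11 with the block (median -0.72). Hist1h2an (chr13:21786826-21787218, minus strand) stood at 56.8 and 67.8 CPM in Vwf- WT pools, 62.8 and 69.6 in Vwf- Dnmt3a+/-, 34.5 and 37.7 in Vwf+ WT and 32.2 and 44.8 in Vwf+ Dnmt3a+/-, with no overlap between fractions. Its change was -0.78 ± 0.13, with the smallest p of all members (adjusted p = 0.0069). Hist1h2ai (chr13:21716422-21716814, plus strand) stood at 78.9 and 96.0 CPM in Vwf- WT pools, 77.9 and 104 in Vwf- Dnmt3a+/-, 35.7 and 59.2 in Vwf+ WT and 43.1 and 69.4 in Vwf+ Dnmt3a+/-, also without overlap, with a change of -0.79 ± 0.20 (adjusted p = 0.048).

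Both have close copies: 85.8% of the 50-base words of Hist1h2an and 90.1% of those of Hist1h2ai occur at another locus, so how reads were divided between H2A genes is uncertain. Each also overlaps an annotated gene on the opposite strand (Gm44346 and Gm44367). The strand setting of the counting is not given in the sources used here.

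Among the H2A genes with the highest levels, Hist1h2ak (1374 TPM) stood at 339 and 465 CPM in Vwf- WT pools, 345 and 591 in Vwf- Dnmt3a+/-, 185 and 301 in Vwf+ WT and 198 and 372 in Vwf+ Dnmt3a+/-. Within each sex the Vwf+ pools were lower, and across sexes the fractions overlapped. Its change of -0.72 ± 0.25 passed with the block alone (adjusted p = 0.15 without and 2.3e-05 with it). Hist1h2af stood at 262 and 357 CPM in Vwf- WT pools, 234 and 460.2 in Vwf- Dnmt3a+/-, 109 and 209 in Vwf+ WT and 114 and 291 in Vwf+ Dnmt3a+/-, with a change of -0.86 ± 0.32 (adjusted p = 0.19 without and 1.0e-05 with the block). Hist1h2ab and Hist1h2ag followed the same pattern. Hist1h2ab stood at 161 and 233 CPM in Vwf- WT pools, 166 and 287 in Vwf- Dnmt3a+/-, 87.8 and 146 in Vwf+ WT and 95.9 and 178 in Vwf+ Dnmt3a+/-, and Hist1h2ag at 32.0 and 41.2 CPM in Vwf- WT pools, 29.97 and 49.8 in Vwf- Dnmt3a+/-, 17.1 and 21.1 in Vwf+ WT and 17.8 and 33.7 in Vwf+ Dnmt3a+/-. Their changes were -0.74 ± 0.25 and -0.78 ± 0.23 (adjusted p = 1.0e-05 and 9.3e-05 with the block).

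Hist1h2ac was one of the H2A genes that passed in neither fit. It stood at 309 and 274 CPM in Vwf- WT pools, 342 and 333 in Vwf- Dnmt3a+/-, 259 and 291 in Vwf+ WT and 243 and 240.4 in Vwf+ Dnmt3a+/-, where the Vwf+ WT female pool was above its Vwf- partner, with a change of -0.28 ± 0.11 (adjusted p = 0.2, and 0.062 with the block). Hist3h2a stood at 86.3 and 101 CPM in Vwf- WT pools, 84.1 and 107 in Vwf- Dnmt3a+/-, 60.5 and 90.1 in Vwf+ WT and 64.6 and 64.1 in Vwf+ Dnmt3a+/-, with a change of -0.44 ± 0.14 (adjusted p = 0.12, and 0.0049 with the block). In the annotation, where its transcript has 2146 bases, the exons of Hist3h2a overlap Trim17 on the same strand. The ratio of count to TPM implied a counted length of 508 bases, and whether the overlap lies within it was not examined.

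Of the 16 tested H2B genes, the pseudogene Hist3h2bb-ps included, 3 fell, and 12 with the block (median -0.69). Hist2h2bb (chr3:96269752-96270132, plus strand), the H2B gene with the highest level (1118 TPM), stood at 270.2 and 303 CPM in Vwf- WT pools, 367 and 363 in Vwf- Dnmt3a+/-, 164 and 220.4 in Vwf+ WT and 180.2 and 227 in Vwf+ Dnmt3a+/-. No Vwf+ pool reached the lowest Vwf- pool, and the change was -0.71 ± 0.13 (adjusted p = 0.012). None of its 50-base words is shared, although it overlaps Gm42743 on its own strand. Hist1h2bb (chr13:23746734-23747241, plus strand) stood at 162 and 197 CPM in Vwf- WT pools, 207 and 248 in Vwf- Dnmt3a+/-, 89.7 and 132 in Vwf+ WT and 113 and 153 in Vwf+ Dnmt3a+/-, and Hist1h2bg (chr13:23571396-23572013, plus strand) at 141 and 153 CPM in Vwf- WT pools, 152 and 176 in Vwf- Dnmt3a+/-, 97.4 and 125 in Vwf+ WT and 101 and 110.3 in Vwf+ Dnmt3a+/-. Neither showed overlap between fractions. Their changes were -0.74 ± 0.16 (adjusted p = 0.023) and -0.52 ± 0.12 (adjusted p = 0.028), and 40.1% and 49.7% of their 50-base words occur elsewhere.

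Hist1h2bh, Hist1h2bl and Hist1h2bm passed with the block alone. Hist1h2bh stood at 48.9 and 77.8 CPM in Vwf- WT pools, 63.4 and 100.2 in Vwf- Dnmt3a+/-, 27.8 and 47.5 in Vwf+ WT and 33.9 and 56.1 in Vwf+ Dnmt3a+/-. The male Vwf+ pools were the lowest and the female Vwf- pools the highest. Hist1h2bl stood at 47.2 and 62.1 CPM in Vwf- WT pools, 54.2 and 75.5 in Vwf- Dnmt3a+/-, 26.0 and 35.0 in Vwf+ WT and 28.1 and 54.5 in Vwf+ Dnmt3a+/-, and Hist1h2bm at 58.4 and 75.1 CPM in Vwf- WT pools, 69.5 and 82.8 in Vwf- Dnmt3a+/-, 31.8 and 48.4 in Vwf+ WT and 35.2 and 59.3 in Vwf+ Dnmt3a+/-. Their changes were -0.81 ± 0.24, -0.74 ± 0.21 and -0.71 ± 0.19.

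Hist2h2be was the exception among all members: it stood at 8.70 and 8.80 CPM in Vwf- WT pools, 8.24 and 8.21 in Vwf- Dnmt3a+/-, 6.57 and 9.56 in Vwf+ WT and 7.85 and 11.2 in Vwf+ Dnmt3a+/-, with a change of 0.05 ± 0.21 (adjusted p = 0.95), the 1 value above 0. It was -0.02 in limma on log2(TPM + 1), so its sign is not settled. The length over which the authors counted was estimated from the ratio of count to TPM, scaled on 2931 genes with a single annotated transcript. Of these genes, 71.5% came within 5% of their annotated length. The estimate was 2618 bases for Hist2h2be and 2510 for Hist1h2be, against 312 to 903 bases for the other members, for example 725 for Hist1h1c. Hist2h2be faces Hist2h2ac across 239 bases, and Hist2h2ac had a change of -0.51 ± 0.17 (adjusted p = 9.1e-04 with the block). In the other 9 tested pairs of divergent H2A and H2B genes, with start sites 173 to 302 bases apart, both genes had negative values. Examples were -0.72 ± 0.25 for Hist1h2ak and -0.73 ± 0.22 for Hist1h2bn. The pair 173 bases apart was Hist3h2a with the pseudogene Hist3h2bb-ps. Hist1h2bc stood at 189 and 174 CPM in Vwf- WT pools, 193 and 208 in Vwf- Dnmt3a+/-, 149 and 172 in Vwf+ WT and 146 and 135 in Vwf+ Dnmt3a+/-, with no overlap between fractions, with a change of -0.35 ± 0.10 (adjusted p = 0.092, and 0.018 with the block). Hist3h2ba was low at 4.81 and 7.15 CPM in Vwf- WT pools, 5.64 and 8.59 in Vwf- Dnmt3a+/-, 3.55 and 5.47 in Vwf+ WT and 4.03 and 2.82 in Vwf+ Dnmt3a+/- and passed in neither fit (-0.73 ± 0.29, adjusted p = 0.21, and 0.091 with the block).

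H3 and H4 form the core of the nucleosome. All 10 tested H3 genes fell with the block, and 1 without it (median -0.71). Hist1h3i (chr13:21782960-21783370, minus strand) stood at 60.6 and 76.0 CPM in Vwf- WT pools, 61.7 and 101 in Vwf- Dnmt3a+/-, 30.05 and 45.2 in Vwf+ WT and 31.1 and 52.2 in Vwf+ Dnmt3a+/-, without overlap, with a change of -0.91 ± 0.22 (adjusted p = 0.037). Of its 50-base words, 87.6% occur at another locus, most often Hist1h3h. Hist1h3e had the highest H3 level (994 TPM) and the smallest H3 change. It stood at 217 and 249 CPM in Vwf- WT pools, 228 and 323 in Vwf- Dnmt3a+/-, 144 and 209 in Vwf+ WT and 169.7 and 237 in Vwf+ Dnmt3a+/-, with a change of -0.42 ± 0.17 (adjusted p = 0.24, and 0.0036 with the block).

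The other H3 genes moved between those values. Hist1h3a stood at 72.8 and 96.3 CPM in Vwf- WT pools, 86.3 and 122 in Vwf- Dnmt3a+/-, 44.9 and 64.2 in Vwf+ WT and 49.4 and 73.7 in Vwf+ Dnmt3a+/-, and Hist1h3c at 88.7 and 115 CPM in Vwf- WT pools, 99.9 and 140.3 in Vwf- Dnmt3a+/-, 40.6 and 69.8 in Vwf+ WT and 54.3 and 89.5 in Vwf+ Dnmt3a+/-. In both, the lowest Vwf- pool was the WT male one and was passed only by the Vwf+ Dnmt3a+/- female pool. Their changes were -0.70 ± 0.18 (adjusted p = 0.055) and -0.81 ± 0.21 (adjusted p = 0.056), just missing the threshold. Hist1h3b stood at 171 and 219.6 CPM in Vwf- WT pools, 189 and 299.6 in Vwf- Dnmt3a+/-, 81.8 and 150.3 in Vwf+ WT and 96.2 and 201 in Vwf+ Dnmt3a+/-, and Hist1h3d at 129 and 173 CPM in Vwf- WT pools, 136 and 216 in Vwf- Dnmt3a+/-, 74.6 and 114 in Vwf+ WT and 83.6 and 138 in Vwf+ Dnmt3a+/-. Hist1h3g was lower, at 31.7 and 48.4 CPM in Vwf- WT pools, 36.2 and 54.5 in Vwf- Dnmt3a+/-, 19.1 and 27.0 in Vwf+ WT and 17.7 and 36.4 in Vwf+ Dnmt3a+/-. Hist2h3b, which lies beside Hist2h2bb in the Hist2 cluster, stood at 46.2 and 68.2 CPM in Vwf- WT pools, 51.1 and 80.9 in Vwf- Dnmt3a+/-, 27.6 and 41.3 in Vwf+ WT and 29.3 and 49.6 in Vwf+ Dnmt3a+/-. In all 4 of these genes the highest Vwf+ pool, the Dnmt3a+/- female one, lay above the lowest Vwf- pool, and the 4 changes lay between -0.67 ± 0.21 (Hist1h3d) and -0.77 ± 0.25 (Hist1h3g).

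Of the 12 tested H4 genes none fell without the block, although 9 had an unadjusted p under 0.05, and 10 fell with it (median -0.52). Hist1h4d, the H4 gene with the highest level (1852 TPM), stood at 349 and 382 CPM in Vwf- WT pools, 304 and 428 in Vwf- Dnmt3a+/-, 248 and 319 in Vwf+ WT and 243 and 320.4 in Vwf+ Dnmt3a+/-, with a change of -0.37 ± 0.16 (adjusted p = 0.25, and 0.012 with the block). Hist2h4 stood at 52.6 and 57.5 CPM in Vwf- WT pools, 66.5 and 83.3 in Vwf- Dnmt3a+/-, 34.4 and 48.3 in Vwf+ WT and 45.7 and 52.2 in Vwf+ Dnmt3a+/-. Its fractions did not overlap, and it came closest to the threshold (-0.51 ± 0.14, adjusted p = 0.062, and 8.3e-04 with the block). Hist1h4f, Hist1h4b and Hist1h4k had changes of -0.74 ± 0.26, -0.66 ± 0.23 and -0.66 ± 0.25. Hist1h4f stood at 66.0 and 93.1 CPM in Vwf- WT pools, 68.2 and 125 in Vwf- Dnmt3a+/-, 34.1 and 69.7 in Vwf+ WT and 41.7 and 64.6 in Vwf+ Dnmt3a+/-, and Hist1h4b at 42.0 and 56.2 CPM in Vwf- WT pools, 40.3 and 73.2 in Vwf- Dnmt3a+/-, 27.1 and 44.3 in Vwf+ WT and 24.7 and 37.3 in Vwf+ Dnmt3a+/-. Hist1h4k stood at 69.5 and 97.0 CPM in Vwf- WT pools, 69.5 and 126 in Vwf- Dnmt3a+/-, 41.0 and 68.3 in Vwf+ WT and 42.1 and 76.6 in Vwf+ Dnmt3a+/-. In these 3 genes too, the Vwf+ pools were lower within each sex and overlapped across sexes. Hist4h4, alone in its cluster, stood at 59.2 and 74.9 CPM in Vwf- WT pools, 69.1 and 104 in Vwf- Dnmt3a+/-, 37.2 and 71.1 in Vwf+ WT and 43.0 and 72.1 in Vwf+ Dnmt3a+/-, with a change of -0.45 ± 0.23 (adjusted p = 0.38, and 0.0025 with the block). The exceptions were Hist1h4i and Hist1h4n, with changes of -0.04 ± 0.23 and -0.24 ± 0.19, past the threshold in neither fit (the sign of Hist1h4i turned when any of 3 libraries was left out singly).

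**Figure D3:**
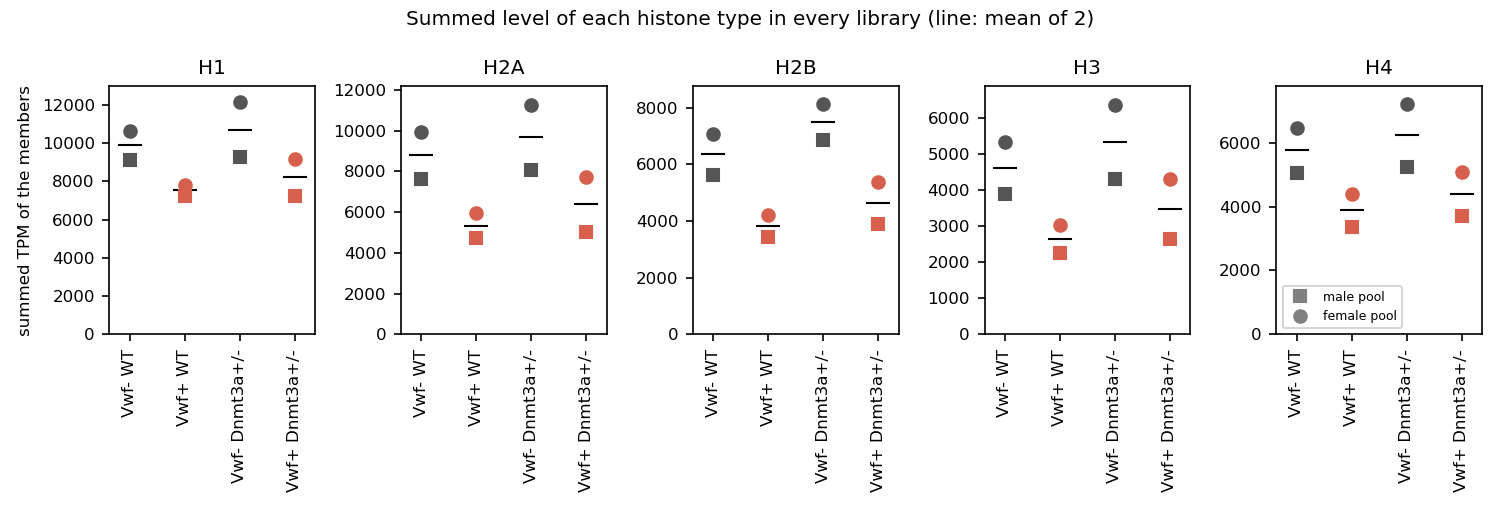
Summed TPM of the members of each type in every library (squares, male pools; circles, female pools; line, mean of 2; grey, Vwf-; red, Vwf+). In all 5 panels the Vwf+ pool lies below the Vwf- pool of the same genotype and sex.

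Summed over all members, the level was 31336 and 39486 TPM in Vwf- WT, 33757 and 45079 in Vwf- Dnmt3a+/-, 21028 and 25381 in Vwf+ WT and 22527 and 31659 in Vwf+ Dnmt3a+/-. The Vwf+ Dnmt3a+/- female pool, at 31659 TPM, was the 1 Vwf+ pool above the lowest Vwf- pool. In summed CPM the fractions did not overlap (5752 to 8257 in Vwf+ and 8506 to 12023 in Vwf- pools). The ratio of Vwf+ to Vwf- summed CPM was 0.676 and 0.671 in the WT and Dnmt3a+/- male pairs and 0.810 and 0.687 in the female pairs. In summed TPM the ratios were 0.671 and 0.667 in the male pairs and 0.643 and 0.702 in the female pairs. The order of the pairs thus depended on the scale. By type, the CPM ratio was nearest to 1 for H1 (0.733 to 0.906) and lowest for H3 in the WT male pair (0.566).

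Some replication-dependent genes are known to leave polyadenylated messages as well. A list of such members drawn from general knowledge (Hist1h1c, Hist1h2bc, Hist2h2be, Hist3h2a, Hist3h2ba and Hist4h4) had no call among 6 tested (3 with an unadjusted p under 0.05), 3 with the block, and a median change of -0.39. The other 51 had 8 calls and a median of -0.67. The difference between these medians was not tested, and the list was picked with results of these data known.

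The machinery that makes and processes histone messages was read from a list of 20 tested genes. None passed without the block (4 with an unadjusted p under 0.05; median -0.11), and 4 fell with it, among them Slbp and Casp8ap2, the latter a factor of the histone locus body. Slbp stood at 81.2 and 107 CPM in Vwf- WT pools, 69.5 and 124 in Vwf- Dnmt3a+/-, 59.4 and 70.8 in Vwf+ WT and 67.3 and 83.9 in Vwf+ Dnmt3a+/-. It was lower in the Vwf+ than in the Vwf- pool of every pair, with a small step in the Dnmt3a+/- male pair, with a change of -0.44 ± 0.18 (adjusted p = 0.24, and 0.0087 with the block). Npat, the co-activator that cyclin E and Cdk2 act on at histone promoters, stood at 53.3 and 59.0 CPM in Vwf- WT pools, 48.9 and 53.3 in Vwf- Dnmt3a+/-, 52.3 and 57.01 in Vwf+ WT and 47.3 and 57.9 in Vwf+ Dnmt3a+/-. Its change was 0.00 ± 0.11 (adjusted p = 1), with the fractions overlapping. Of 21 tested histone chaperone and supply genes, 1 fell and 6 with the block (median -0.25). The 1 was Tonsl, a reader of newly made H4 at replication forks, which stood at 42.2 and 37.6 CPM in Vwf- WT pools, 53.1 and 43.8 in Vwf- Dnmt3a+/-, 22.04 and 15.5 in Vwf+ WT and 26.8 and 34.5 in Vwf+ Dnmt3a+/-, with a change of -0.88 ± 0.16 (adjusted p = 0.0095).

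Replacement histones are made outside S phase as well. Of 11 tested, 1 rose and none fell (median -0.04), and 3 fell and 1 rose with the block. The gene that rose was H1f0, the linker histone of resting and differentiated cells, which stood at 167 and 166 CPM in Vwf- WT pools, 134 and 158 in Vwf- Dnmt3a+/-, 225 and 232 in Vwf+ WT and 198 and 206 in Vwf+ Dnmt3a+/-, with a change of 0.46 ± 0.10 (adjusted p = 0.026). All 4 Vwf+ pools lay above the 4 Vwf- pools. H2afz, the H2A.Z gene, stood at 246 and 262 CPM in Vwf- WT pools, 287 and 311 in Vwf- Dnmt3a+/-, 187 and 255 in Vwf+ WT and 244 and 238 in Vwf+ Dnmt3a+/-, with a change of -0.26 ± 0.12 (adjusted p = 0.34). The H3.3 genes H3f3a and H3f3b had changes of -0.01 ± 0.11 and 0.04 ± 0.19, neither past the threshold (adjusted p = 0.98 and 0.96). H3f3a stood at 268 and 255 CPM in Vwf- WT pools, 255 and 265 in Vwf- Dnmt3a+/-, 256 and 292 in Vwf+ WT and 263 and 225 in Vwf+ Dnmt3a+/-, and H3f3b at 986 and 697 CPM in Vwf- WT pools, 1219 and 736 in Vwf- Dnmt3a+/-, 1024 and 851 in Vwf+ WT and 1029.6 and 823 in Vwf+ Dnmt3a+/-. Those that fell with the block were Cenpa (the centromeric H3), H2afy and H2afx, the last of which also held a stem-loop in the search above.

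Genes of the cell cycle fell alongside the histone genes. Of 40 tested S phase genes 7 fell (33 with the block; median -0.59), and all 40 had negative values. The S phase list includes Slbp, which was also counted in the machinery list above. Those with the smallest p were Dscc1 (-1.13 ± 0.19), Tyms (-0.69 ± 0.13), Prim1 (-0.61 ± 0.12), Orc1 (-0.70 ± 0.17), Chek1 (-1.06 ± 0.26) and Pold1 (-0.66 ± 0.16). Of 25 tested G2/M genes, 1 fell (25 with the block; median -0.78), the cytokinesis kinesin Kif23 (-0.92 ± 0.20). Among 22 regulators of entry into S phase, Cdk6 (-1.02 ± 0.19) and Cdc7 (-0.65 ± 0.13) fell and the inhibitor Cdkn1c (0.94 ± 0.14) and the cyclin Ccnd1 (0.55 ± 0.13) rose. The part of cell cycle genes in the histone difference was not tested.

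**Figure D4:**
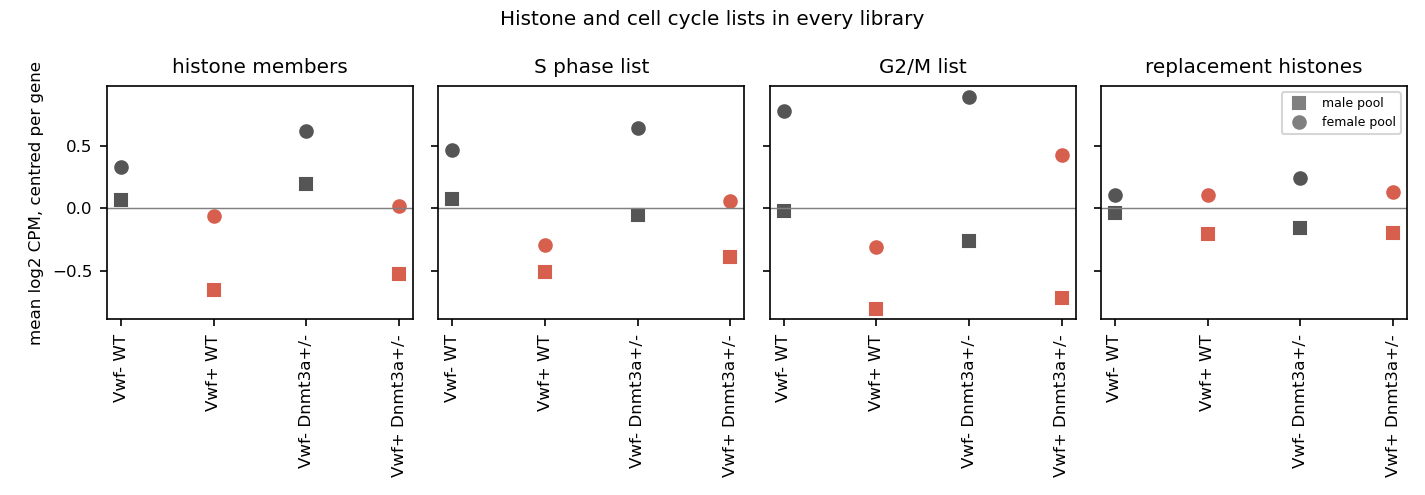
Mean log2 CPM, centred per gene, of the tested histone genes, the S phase list, the G2/M list and the replacement histones in each library (squares, male pools; circles, female pools; grey, Vwf-; red, Vwf+). The first 3 panels fall from Vwf- to Vwf+ within each sex and genotype. The replacement histones stay between -0.204 and 0.248 and also fall in each pair but the WT female one (0.106 in Vwf- and 0.111 in Vwf+).

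Markers of LT-HSCs and of other cells also differed between the fractions. Of 13 LT-HSC genes 6 rose in Vwf+ cells (Slamf1, Ctnnal1, Hoxb5, Fgd5, Mecom and Vwf, the gene behind the sort) and none fell. Of all 15917 tested genes, 599 rose. Slamf1, which encodes the CD150 of the sort, stood at 20.1 and 23.8 CPM in Vwf- WT pools, 22.04 and 26.6 in Vwf- Dnmt3a+/-, 75.6 and 80.5 in Vwf+ WT and 87.1 and 86.2 in Vwf+ Dnmt3a+/-, with a change of 1.83 ± 0.12, with no overlap, while the summed level of the 12 genes other than Vwf was 3053 to 3508 CPM in Vwf+ and 2747 to 3177 CPM in Vwf- pools. Of 6 endothelial genes 3 rose in Vwf+ cells (Cldn5, Kdr and Cdh5), and their summed level was 231 to 255 CPM in Vwf+ and 125 to 166 CPM in Vwf- pools. Of 5 tested megakaryocyte genes 2 rose (summed level 219 to 360.0 against 167 to 216 CPM), of 7 granulocyte and monocyte genes 1 rose (249.6 to 341 against 173 to 226 CPM), and of the 3 surface genes of progenitors 2 fell (62.1 to 71.7 against 158 to 235 CPM). The 1 tested T and NK cell gene, Nkg7, fell (1.97 to 3.73 against 7.66 to 8.65 CPM for the list), and no erythroid gene (0 of 5) passed, with 2 at an unadjusted p under 0.05. The B cell genes Ms4a1 and Pax5 and the genes Cd3e, Cd3d, Cd3g, Klrd1 and Gp6 were at 0 in at least 1 library and Hba-a1 and Hbb-bt in all 8. The part of these markers and cells in the histone difference was not tested.

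Within a genotype, 0 of 57 members passed without the block, in WT (where 0.496% of all tested genes fell) and in Dnmt3a+/- cells (where 0.17% did). In WT, 19 members had an unadjusted p under 0.05 (1973 of 15917 tested genes did). The WT median was -0.58, and DESeq2 called 2 and limma on TPM 0. In Dnmt3a+/- cells, 30 members had an unadjusted p under 0.05 (1435 of 15917 tested genes did). The median there was -0.67, and DESeq2 called 8 and limma 0. With the block, 34 members fell in WT (3.78% of all tested genes) and 43 in Dnmt3a+/- cells (1.85%). The WT count was at most 1 when any library was left out and 6 in a fit of the 4 WT libraries alone, and the Dnmt3a+/- count was 3 without the Vwf- Dnmt3a+/- male pool.

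Whether the Vwf difference itself changes with Dnmt3a was asked by the interaction. No member passed, with or without the block, and 0 of all tested genes did in both fits. No member had an unadjusted p under 0.05, where 159 of 15917 tested genes did without the block. DESeq2 and limma called 0 members. The members with the smallest p were Hist1h2ac (-0.40 ± 0.22) and Hist1h2bc (-0.33 ± 0.21). They face away from each other with start sites 251 bases apart, and in WT female pools each was at about the same level in both fractions. The signs of the interaction depended on the scale: 38 of 57 values were negative in edgeR (median -0.11, all tested genes -0.004) and 38 were positive in limma on log2(TPM + 1) (median 0.08, all tested genes 0.15).

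The second comparison was between genotypes. No member passed between Dnmt3a+/- and WT cells, whether averaged over Vwf status (0% of all tested genes passed, and 0.188% with the block), in Vwf+ (0% and 0.0377%) or in Vwf- cells (0% and 0.0126%). DESeq2 and limma called 0 members in each of the 3. Averaged over Vwf status, 48 of 57 members had positive values, and the median was 0.16 on the log2 scale (all tested genes, 0.009). An unadjusted p under 0.05 was reached by 1 member, Hist2h4, with 0.34 ± 0.14 (adjusted p = 1), and by 516 of 15917 tested genes. Hist1h2bb had the next smallest p, at 0.30 ± 0.16 (adjusted p = 1).

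The Dnmt3a+/- pool lay above the WT pool of the same fraction and sex in all 4 pairs for 24 of 57 members, against 8.23% of all tested genes. By type, the medians were 0.08 for H1, 0.15 for H2A, 0.21 for H2B and for H3, and 0.12 for H4. In Vwf- cells 54 of 57 values were positive (median 0.21), and 1 member had an unadjusted p under 0.05 (211 of all tested genes had). In Vwf+ cells 41 were positive (median 0.12), and no member had (363 of all tested genes had). In limma on log2(TPM + 1) the order of the medians turned: 51 values were positive in each fraction, with medians of 0.16 in Vwf- and 0.24 in Vwf+ cells (all tested genes, -0.02 and 0.12), and 2 and 1 members had an unadjusted p under 0.05. A p that misses the threshold does not show that the genotypes are alike.

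The third comparison was between female and male pools, with sex added to the 4 group means. This fit has the same form as that with the replicate block. It counts the Vwf+ and Vwf- pools of a sex as independent, and the labels do not say whether they share mice. Of 57 members, 38 were higher in female pools and none lower, where 5.62% of all tested genes were higher. The median was 0.49 on the log2 scale (all tested genes, -0.02), and female lay above male in all 4 groups for 48 of 57 members, against 15.7% of all tested genes. All 10 H3 genes were higher, as were 3 of 6 H1, 9 of 13 H2A, 8 of 16 H2B and 8 of 12 H4 genes. The count was 30 to 38 when single libraries were left out, and 0 in a fit of sex without the group means.

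The largest sex difference was in Hist1h2af (0.93 ± 0.12, or 1.90-fold higher, adjusted p = 8.3e-05), whose levels are given above. It was highest in the Vwf- Dnmt3a+/- female pool and lowest in the Vwf+ male pools. Hist1h4f (0.76 ± 0.10), Hist1h3b (0.74 ± 0.11), Hist1h2ab (0.74 ± 0.10), Hist1h4k (0.73 ± 0.10), Hist1h2ak (0.71 ± 0.10) and Hist1h2bh (0.71 ± 0.09) followed. Members that did not pass included Hist1h2ac (-0.02 ± 0.10), Hist1h2bc (0.02 ± 0.10), Hist1h1e (0.20 ± 0.10), Hist1h1d (0.26 ± 0.10), Hist1h2an (0.25 ± 0.10) and Hist2h2bb (0.23 ± 0.10).

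The summed CPM of the members was 1.39 and 1.16 times higher in female than in male pools of Vwf+ and Vwf- WT, and 1.38 and 1.35 times higher in those of Vwf+ and Vwf- Dnmt3a+/- cells. In summed TPM the WT female and male pools stood at 25381 and 21028 in Vwf+ and at 39486 and 31336 in Vwf- cells. On that scale the relative step in WT was not larger in Vwf+ cells. Cell cycle genes moved in the same direction: 24 of 40 S phase genes and 25 of 25 G2/M genes were higher in female pools (medians 0.48 and 0.94). The Malat1 share was lower in every female than in every male pool. The parts of these in the sex difference were not tested, and each sex was also 1 replicate number.

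**Figure D5:**
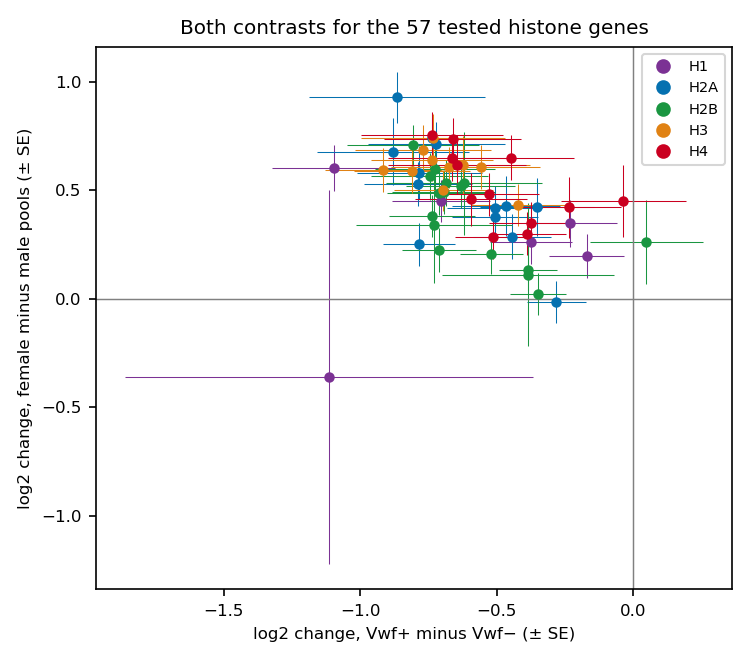
Log2 change of each of the 57 tested histone genes in Vwf+ against Vwf- cells (x axis) and in female against male pools (y axis), with SE bars and colours for type. Both changes come from the same 8 libraries; most genes lie low in Vwf+ cells and high in female pools, and Hist1h1t has the widest bars.

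Because histone genes are near copies of each other, the change was also read by how much of each transcript is shared. Over the members 0% to 93.9% of 50-base words (median 43.2%) occur at another locus. Sharing was taken over the whole annotated transcript, which for some members is longer than the length estimated from count and TPM. For Hist1h1d these were 7425 and 776 bases, and for Hist4h4 2863 and 439. Both count as under 10% shared. The share within the counted part was not computed and may differ from that given. The 12 tested members with under 10% shared had a median Vwf change of -0.45, with 3 lower (8 with the block). The 23 with 10 to 50% had a median of -0.56 (2 lower, 17 with the block), and the 22 with 50% or more a median of -0.73 (3 lower, 21 with the block). The 9 symbols that matched by name but held under 10 counts shared 34.7% to 100% of their words (median 93.1%), and how the counting treated such reads is not given in the sources used here.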

How the data were processed

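Total RNA was sequenced from 8 samples of LT-HSCs sorted from pooled mice, 4 groups of 2. The labels' protocols name a micro-scale DNA and RNA isolation kit and a low-input total RNA library kit. The authors deposited a table of whole-number counts per gene symbol and a table of TPM, in which each count is divided by 1 length per gene. Listed in the submitters' processing notes are the build mm10, featureCounts, STAR, DESeq2 and Trim Galore. Versions, annotation, strand setting and the handling of reads with several matches are not given in the sources used here. The last 2 bear on histone genes, which are near copies of each other.

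The test used edgeR 4.0.16 under R 4.3.3. After filterByExpr (minimum count 10), TMM scaling gave factors of 0.958 to 1.06, and the quasi-likelihood test was run with 4 group means on all 8 libraries, leaving 4 residual degrees of freedom. P-values were adjusted by Benjamini-Hochberg over the 15917 genes (threshold 0.05) and measure only the spread between libraries. If both fractions of a genotype and sex came from the same mice, the tests of genotype and of sex count them as independent although they are not. SE was taken from the log2 change and its F statistic. CPM used the scaled library sizes, and TPM the deposited values. Alternatives were DESeq2 1.42.0, median-of-ratios scaling, no filter, limma 3.58.1 on log2(TPM + 1) or log2(TPM + 0.1), the 4 libraries of a contrast alone, leaving out each library, and a replicate block. Fits were checked on simulated counts.

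The same replicate number marks the same sex in each group, and the difference between replicates 1 and 2 correlated between all 6 pairs of groups (r of 0.134 to 0.296 over the tested genes). The numbers were therefore read as pairing the libraries, and the block left 3 residual degrees of freedom.

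Members came from the name rule in the report. Library values are given for members called in a comparison (the 12 with the smallest p where more were called), the highest mean TPM in each type, the 2 smallest p in a comparison with no call and the polyadenylated list. Other members named were chosen after their values were seen. The members, lists and rules were chosen with earlier results of these data known. Stem-loops, motifs and shared 50-base words were searched with Python 3.11.15, and figures were drawn with matplotlib 3.10.9. The count over the B cell marker list is not reported here.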

Additional observations from a re-analysis of the deposited data

How the results depend on the processing

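The 8 members lower in Vwf+ cells averaged over genotype became 32 with DESeq2, 42 without the filter and 46 with the replicate block, in which the numbers pair male with male and female with female pools, and 1 to 33 when single libraries were left out. In WT the count of 0 became 2 with DESeq2, 25 without the filter, 34 with the replicate block, 6 in the 4 WT libraries alone and 0 to 1 without single libraries. In Dnmt3a+/- cells it became 8, 30 and 43 with DESeq2, no filter and the replicate block, and 0 to 3 without single libraries. The cause of these moves was not tested. For genotype and the interaction the count was 0 in every setting run, the replicate block included. The 38 members higher in female pools became 23 in limma on log2(TPM + 1), 0 in a fit of sex without group means, which holds the group differences as error, and 30 to 38 without single libraries. Median-of-ratios scaling moved no count by over 1.5 times.

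Of the members named with a change in Vwf+ cells, Hist2h2be and Hist1h4i reversed in at least 1 setting. Hist2h2be was 0.05 and became -0.02 in both limma fits (-0.0195 with a pseudocount of 1 and -0.0249 with 0.1), -0.0919 without the Vwf+ Dnmt3a+/- female pool and -0.0975 without the Vwf+ WT female pool; over all fits without a single library it ran from -0.0975 to 0.1658. Hist1h4i was -0.04 and ran from -0.3576 to 0.1777 without single libraries, above 0 without the Vwf+ WT male, the Vwf+ Dnmt3a+/- male or the Vwf- WT female pool. Between female and male pools, Hist1h2ac was -0.02 and ran from -0.0795 to 0.049, and Hist1h2bc was 0.02, ran from -0.0402 to 0.08 and was -0.0214 and -0.0215 in the limma fits. Each group had 2 pools of opposite sex, so the spread within a group holds the sex difference, and the spread between single mice is unknown. Relative to edgeR, limma on log2(TPM + 1) moved the median of all tested genes to 0.15 in the interaction, 0.12 for genotype in Vwf+ cells and -0.11 for Vwf status in WT.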
